A study of Mus musculus with 2 samples.

Results

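The 56 genes described here encode the secreted Wnt ligands, their Frizzled, LRP and LGR receptors, their extracellular antagonists, the Axin scaffolds, and beta-catenin with its TCF/LEF partners. They were chosen by gene symbol among the 26242 named genes with a RefSeq transcript in a table of ear epidermis RNA. The rule used no expression value, but it was chosen with earlier results of these data known. One library came from C57BL/6 mice with a K14 conditional knockout of Il9ra, the gene of the interleukin-9 receptor (Il9r in the table), and is called KO. The other library came from wild-type C57BL/6 mice and is called WT. K14 is keratin 14, a keratin of basal keratinocytes and of the outer root sheath of hair follicles. Ears of both groups received 5% imiquimod cream for 6 consecutive days, which produces psoriasis-like inflammation in mice, and the epidermal sheet was separated with dispase. The sources used here give neither the age and number of the animals behind each library nor the Cre line and deleted exons. With 1 library per genotype there is no spread to compare a difference with, and none was tested.

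The libraries were estimated from steps between their lowest values to hold about 31300000 fragments in KO and 24100000 in WT, so transcripts of a few fragments have imprecise values. Il9r was listed at 0.0106 FPKM in KO and 0.0393 FPKM in WT, too low to check the genotype labels. FPKM counts fragments relative to transcript length and library size, so it can be set side by side between genes. Keratinocyte markers dominated both libraries, with Krt14 at 8083 FPKM in KO and 7421 FPKM in WT. Of 13 dermal fibroblast and papilla markers 1 (Dcn) reached 1 FPKM, and their summed level was 2.69 FPKM in KO and 3.40 FPKM in WT. The 8 endothelial markers summed to 1.03 FPKM in KO and 1.43 FPKM in WT, and Cdh5, Kdr, Emcn and Cldn5 were listed at 0 in both. Of 8 muscle and 6 Schwann cell markers 1 each passed 1 FPKM, and of 7 cartilage markers 0 did. As a background, 55.6% of the 11886 genes past 1 FPKM were lower in KO and 44.4% were higher. Shares and percentiles of all genes below refer to these 11886 genes unless another filter is named. Among resident cell types, 9 of 10 Langerhans and dendritic cell markers were lower in KO. Their median difference on the log2 scale was -0.56, and their summed level was 575 FPKM in KO and 812 FPKM in WT. All 6 melanocyte markers past 1 FPKM were lower, with a median of -0.26; 1 of them, Tyr, passed through the WT library alone and so had to be lower. Of the sebaceous gland markers 7 of 10 were higher, with a median of 0.12. Basal and suprabasal keratinocyte markers had medians of -0.0097 and -0.023. In bulk RNA, fewer cells of a type and less RNA per cell cannot be told apart.

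Wnt proteins are lipid-modified signals that bridge a Frizzled receptor and the co-receptor LRP5 or LRP6. Receptor engagement draws Axin to the membrane and disables the complex that degrades beta-catenin, which then accumulates and activates genes through TCF/LEF factors. R-spondins bind LGR receptors and remove the E3 ligases RNF43 and ZNRF3, which otherwise clear Frizzled proteins from the surface. In mouse skin the pathway is known for initiating hair follicles, driving hair growth and maintaining basal keratinocytes.

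No Wnt gene that reached 1 FPKM differed by 1.5-fold between the KO and WT libraries. Of the 56, 32 had at least 1 FPKM in either library, and each of these had at least 1 FPKM in both. Differences are log2((KO FPKM + 1)/(WT FPKM + 1)), which understates the difference of low genes, and they ran from -0.27 for Dkk3 to 0.36 for Wnt16. None of the 32 was past 2-fold: 0 were higher in KO and 0 lower, against 0.412% and 0.345% (0.757% in all) of the 11886 genes with at least 1 FPKM. At that background share a count of 0 among 32 genes is not particular to Wnt genes. None was past 1.5-fold either, where 2.75% of all genes were. At a lower limit of 0.32 on the log2 scale, 1 gene, Wnt16, was higher in KO and 0 were lower, against 4.59% and 5.9% of all genes. Wnt16 was also the 1 gene of the 32 outside the central 90% of all genes, which runs from -0.34 to 0.31 and leaves out 10% of them.

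Most Wnt genes were slightly lower in the KO library. Of the 32, 24 were lower and 8 higher, with a median log2 difference of -0.070, against 55.6% lower, 44.4% higher and a median of -0.023 over all genes. After scaling on the upper quartile the split was 20 lower and 12 higher, where 48.04% of all genes were lower, and Wnt10a, Fzd5, Rnf43 and Tcf7l1 then stood above 0. Among genes of at least 5 FPKM, 16 of 20 Wnt genes were lower, against 57.1% of all genes of that level. The ratio of the KO to the WT value was within 10% of 1 for 23 of the 32 (71.9%), against 55.8% of all genes. Since neither library has a replicate, a shift of this size has no error to be judged by.

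**Figure D1:**
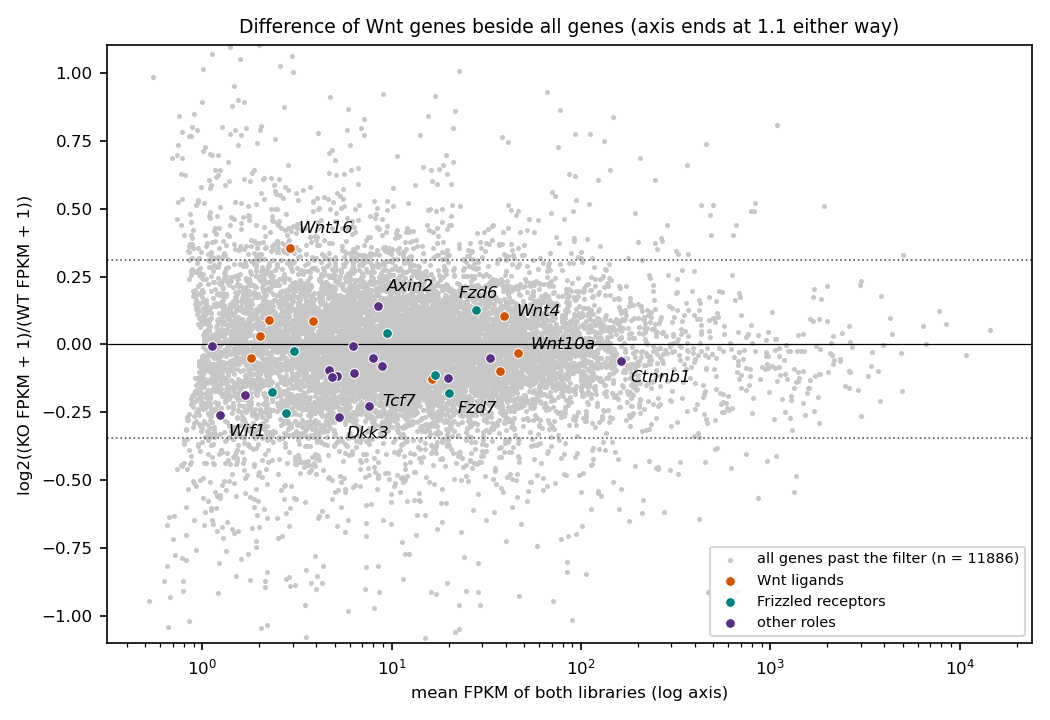
Each point is a gene with at least 1 FPKM in either library, placed by its mean FPKM on a log axis and by log2((KO FPKM + 1)/(WT FPKM + 1)); dotted lines mark the central 90% of all genes. The 32 Wnt genes lie between -0.27 and 0.36, and Wnt16 is the 1 beyond the dotted lines.

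Among the ligands, 4 genes supplied nearly all Wnt transcripts. Wnt10a, Wnt4, Wnt7b and Wnt3 together made up 89.98% of the summed FPKM of the 19 Wnt genes in KO and 90.9% in WT. Wnt10a, a ligand whose loss in humans disturbs teeth, nails and hair, was the most abundant, at 46.1 FPKM in KO and 47.2 FPKM in WT. Wnt4, a ligand with both beta-catenin-dependent and independent actions, was at 40.7 FPKM in KO and 37.7 FPKM in WT, and Wnt7b, an inducer of the beta-catenin branch, at 36.0 FPKM in KO and 38.6 FPKM in WT. Wnt4 thus ranked above Wnt7b in KO and below it in WT, with differences of 0.11 and -0.097 that have no replicate check. Wnt3, another ligand of the beta-catenin branch, was at 15.6 FPKM in KO and 17.1 FPKM in WT. The summed level of all 19 was 153.7 FPKM in KO and 154.7 FPKM in WT, a ratio of 0.994.

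The next tier held 5 ligands of 1 to 4 FPKM. Wnt3a, the classical activator of beta-catenin signalling, was at 3.99 FPKM in KO and 3.70 FPKM in WT. Wnt6 was at 2.36 FPKM in KO and 2.15 FPKM in WT, and Wnt5a, a ligand of the branch that acts without beta-catenin, at 2.06 FPKM in KO and 1.995 FPKM in WT. Wnt10b, which promotes hair growth in mice, was at 1.75 FPKM in KO and 1.85 FPKM in WT. The 9 Wnt ligands past 1 FPKM kept one order of level in both libraries apart from Wnt4 and Wnt7b.

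Wnt16 had the largest difference of all 32 Wnt genes past the filter. Wnt16 encodes a ligand that is made by keratinocytes and is known for protecting cortical bone in mice (ENSMUSG00000029671, chr6:22288227-22298522, plus strand, GRCm38). It was at 3.40 FPKM in KO and 2.44 FPKM in WT, a ratio of 1.39 and a log2 difference of 0.36, which lay at percentile 96.3 of all genes. The difference was 0.18 with a pseudocount of 5 FPKM and 0.48 as the log2 of the plain ratio, with no pseudocount. To show the start of the gene with the largest difference, the 250 bases before its RefSeq start (GRCm38.p6, chr6:22287977-22288226, plus strand) are shown, with the 9 CpG dinucleotides in capitals:
Wnt16: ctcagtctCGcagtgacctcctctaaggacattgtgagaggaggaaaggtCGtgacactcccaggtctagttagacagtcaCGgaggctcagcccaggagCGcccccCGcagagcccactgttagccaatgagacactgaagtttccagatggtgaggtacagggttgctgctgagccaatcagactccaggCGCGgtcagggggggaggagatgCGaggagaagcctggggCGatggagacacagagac

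**Figure D2:**
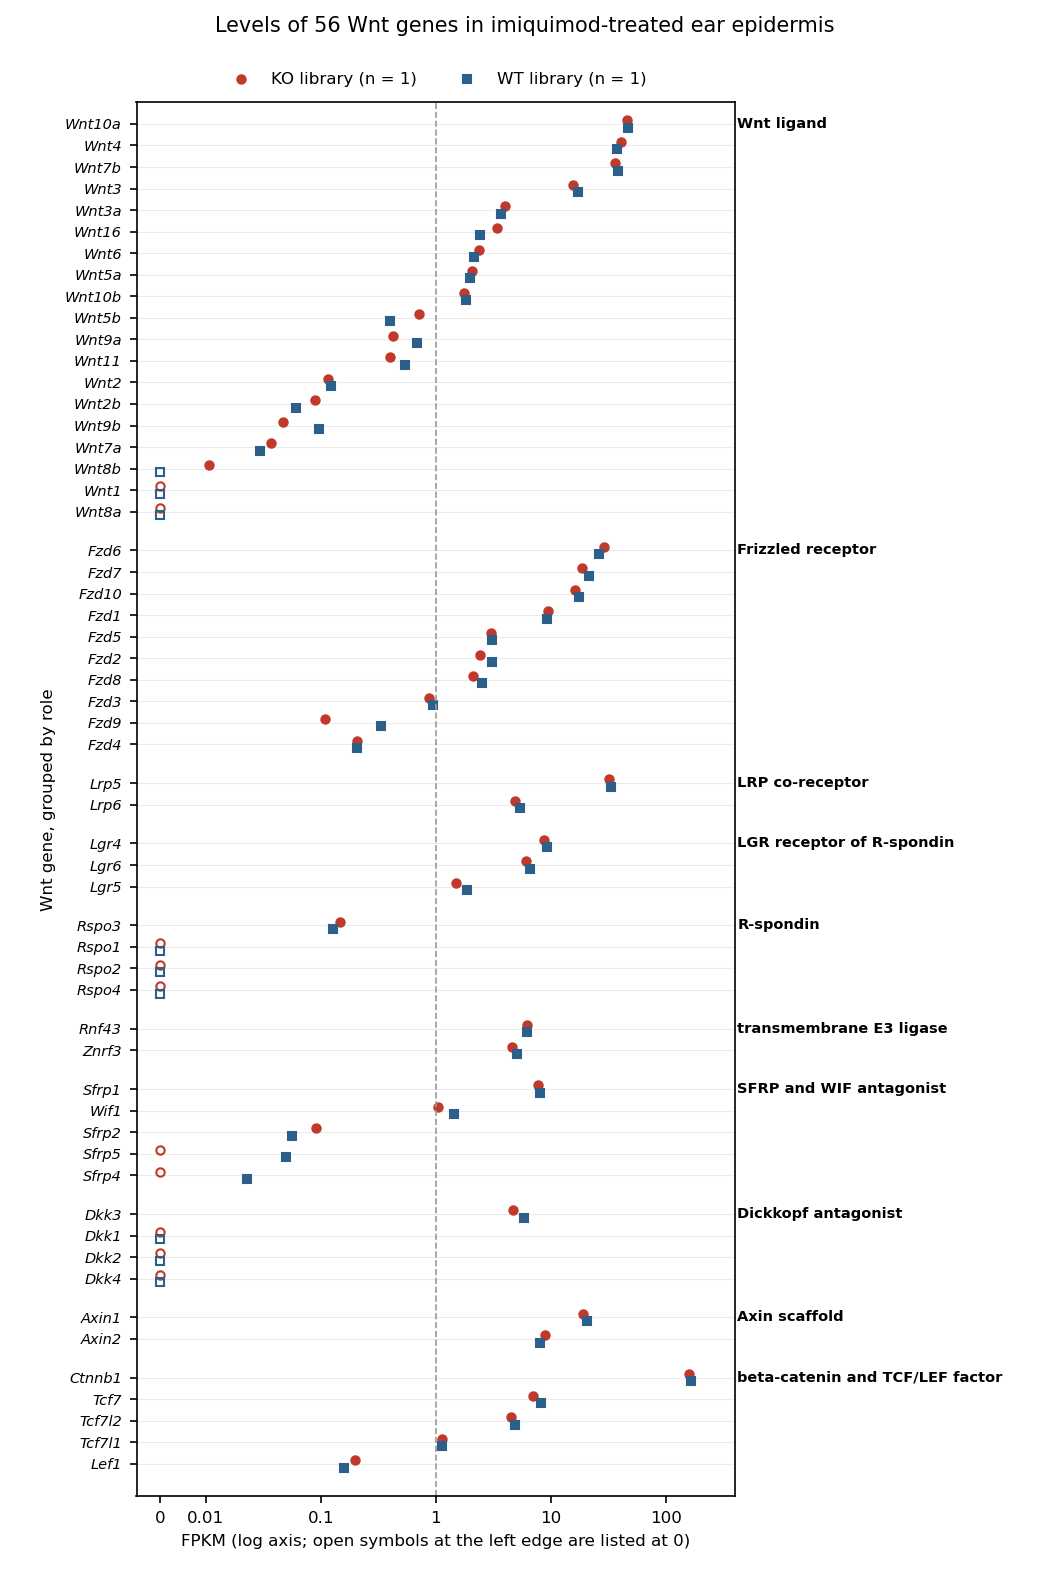
FPKM of the 56 Wnt genes on a log axis, grouped by role, with circles for the KO library and squares for the WT library (1 library each, so no error bars); open symbols at the left edge are listed at 0 and the dashed line marks 1 FPKM. Both symbols of a gene nearly coincide for most genes above 1 FPKM, from Ctnnb1 at 160.1 FPKM in KO and 166.9 FPKM in WT downward.

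The other 10 ligands stayed under 1 FPKM in both libraries. Wnt5b was at 0.72 FPKM in KO and 0.398 FPKM in WT, Wnt9a at 0.429 FPKM in KO and 0.685 FPKM in WT, and Wnt11 at 0.400 FPKM in KO and 0.537 FPKM in WT. Wnt5b and Wnt11 act mainly outside the beta-catenin branch. The Wnt11 values correspond to about 22 fragments in KO and 23 in WT, so the ratio of their FPKM rests on few fragments. Wnt2 had about 8 fragments in KO and 7 in WT, Wnt2b about 9 in KO and 5 in WT, Wnt9b about 7 in KO and 10 in WT, and Wnt7a about 4 in KO and 2 in WT. Wnt8b had about 1 fragment in KO and was listed at 0 in WT, and Wnt1 and Wnt8a were listed at 0 in both. These differences have no replicate check, and those of the genes with few fragments rest on little data.

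Neighbouring Wnt genes had very different levels. All 56 genes were placed on GRCm38 with GENCODE M21, and 4 pairs, all of them Wnt ligands, lay within 100 kb of each other. Wnt6 and Wnt10a, on the plus strand of chromosome 1 with 6.19 kb between them, were at 2.36 and 46.1 FPKM in KO and at 2.15 and 47.2 FPKM in WT, so Wnt10a was 19.5 times as abundant in KO and 21.9 times in WT. Wnt3a and Wnt9a, divergent on chromosome 11 with 16.2 kb between them, differed 9.30-fold in KO and 5.40-fold in WT, in favour of Wnt3a. Wnt10b was at 1.75 FPKM in KO and 1.85 FPKM in WT, whereas Wnt1, 11.7 kb away on chromosome 15, was listed at 0 in both. Each pair kept its order in both libraries.

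Among the 3 pairs with both genes above 0, Wnt3 and Wnt9b had the largest ratio. They lie divergently on chromosome 11 with 24.3 kb between them, and Wnt3 was 334 times as abundant as Wnt9b in KO and 179 times in WT, the Wnt9b value resting on about 7 fragments in KO and 10 in WT. The 250 bases before each RefSeq start (GRCm38.p6; Wnt3, chr11:103773925-103774174, plus strand; Wnt9b, chr11:103749822-103750071, minus strand) are shown to set this pair side by side, 5' to 3' along each gene, with CpG dinucleotides in capitals:
Wnt3: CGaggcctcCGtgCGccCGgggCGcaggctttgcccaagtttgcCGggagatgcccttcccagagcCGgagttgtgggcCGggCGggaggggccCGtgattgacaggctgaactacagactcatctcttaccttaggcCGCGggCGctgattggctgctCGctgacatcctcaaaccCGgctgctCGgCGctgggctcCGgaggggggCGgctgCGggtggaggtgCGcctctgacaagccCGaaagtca
Wnt9b: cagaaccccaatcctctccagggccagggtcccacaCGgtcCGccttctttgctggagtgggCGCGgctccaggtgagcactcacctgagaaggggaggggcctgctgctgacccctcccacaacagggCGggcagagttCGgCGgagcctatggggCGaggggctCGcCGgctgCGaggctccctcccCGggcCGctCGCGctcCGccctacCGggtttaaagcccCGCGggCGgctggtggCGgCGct
Both stretches hold 22 CpG dinucleotides, and their G and C content is 68% for Wnt3 and 72% for Wnt9b.

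**Figure D3:**
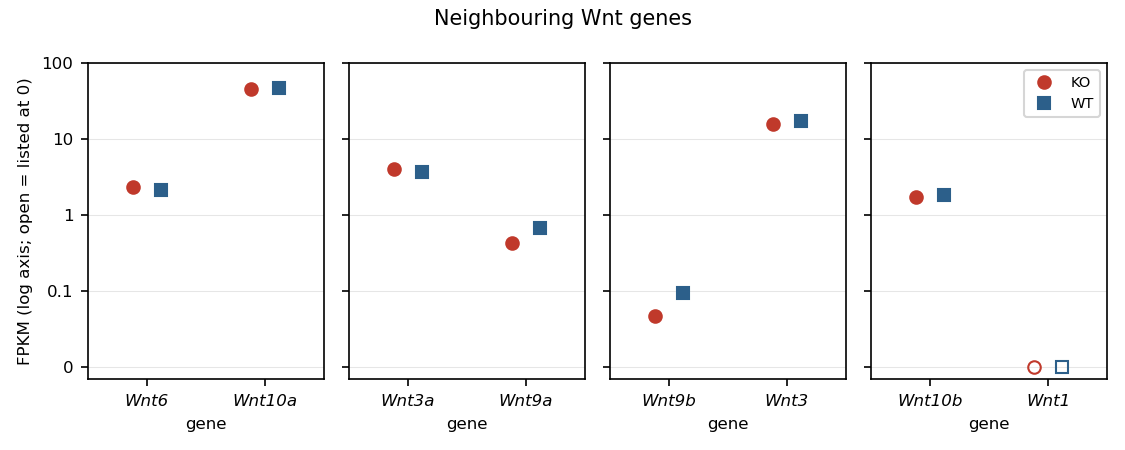
FPKM on a log axis of the 4 pairs of Wnt genes within 100 kb of each other, with circles for KO and squares for WT and 1 library each; open symbols at the bottom are listed at 0. Within each pair 1 gene lies far above the other in both libraries; among the 3 pairs with both genes above 0 the ratio is largest for Wnt3 over Wnt9b.

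Of the 10 Frizzled receptors, 7 passed 1 FPKM, 5 of them lower and 2 higher in KO, with a median log2 difference of -0.11. Over all genes 55.6% were lower. Fzd6, Fzd7 and Fzd10 made up 77.8% of the summed Frizzled FPKM in KO and 77.1% in WT. Fzd6, which orients hair follicles in mice and affects nails in humans, was at 29.0 FPKM in KO and 26.5 FPKM in WT, a difference of 0.13. Fzd7 was at 18.8 FPKM in KO and 21.4 FPKM in WT, a difference of -0.18. Fzd10 was at 16.3 FPKM in KO and 17.7 FPKM in WT. The most abundant Frizzled gene was therefore slightly higher in KO and the next 2 slightly lower, and the sum over all 10 was 82.4 FPKM in KO and 85.0 FPKM in WT.

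The less abundant Frizzled genes were on both sides of 0. Fzd2 was at 2.44 FPKM in KO and 3.10 FPKM in WT, about 280 fragments in KO and 274 in WT, and its difference of -0.25 was the lowest of the 7 past 1 FPKM. Fzd8 was at 2.13 FPKM in KO and 2.53 FPKM in WT, a difference of -0.17. Fzd1 was at 9.54 FPKM in KO and 9.24 FPKM in WT, and Fzd5 at 3.01 FPKM in KO and 3.08 FPKM in WT, so both lay close to 0. Fzd3, a receptor of the planar polarity branch, was at 0.872 FPKM in KO and 0.95 FPKM in WT. Fzd4 was at 0.205 FPKM in KO and 0.206 FPKM in WT, and Fzd9 had about 8 fragments in KO and 18 in WT.

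Of the co-receptors, Lrp5 was far above Lrp6. Lrp5 was at 32.4 FPKM in KO and 33.6 FPKM in WT, a difference of -0.050, and supplied 86.8% of the 2 genes' summed FPKM in KO and 86.1% in WT. Lrp6 was at 4.93 FPKM in KO and 5.42 FPKM in WT. Both genes were lower in KO by less than 10% of the WT value. Over all genes 55.6% were lower.

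The R-spondin receptors passed 1 FPKM while their ligands were at or near the floor. Of the 4 R-spondin genes, Rspo1, Rspo2 and Rspo4 were listed at 0 in both libraries, and Rspo3 was at 0.147 FPKM in KO and 0.129 FPKM in WT, about 14 fragments in KO and 10 in WT. All 3 receptors passed 1 FPKM: Lgr4, the broadly expressed one, was at 8.65 FPKM in KO and 9.20 FPKM in WT, and Lgr6, which marks stem cells of the upper hair follicle, at 6.04 FPKM in KO and 6.57 FPKM in WT. Lgr5, a marker of cycling hair follicle stem cells, was at 1.51 FPKM in KO and 1.86 FPKM in WT, with a difference of -0.19. All 3 were lower in KO, where 55.6% of all genes were, with a median of -0.11. The E3 ligase Rnf43 was at 6.24 FPKM in KO and 6.27 FPKM in WT, the smallest difference among Wnt genes of at least 5 FPKM (-0.0060), and Znrf3 was at 4.60 FPKM in KO and 5.09 FPKM in WT.

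Markers of hair follicle cells are given beside the LGR genes. Of 11 follicle stem cell and outer root sheath markers 9 were lower and 2 higher in KO, where 55.6% of all genes were lower, with a median log2 difference of -0.12, and their summed level was 885 FPKM in KO and 941 FPKM in WT, with 0 of them listed at 0. Most of that sum came from Krt17, at 440 FPKM in KO and 468 FPKM in WT, and Krt15, at 294 FPKM in KO and 296 FPKM in WT. Krt15 is also among the basal keratinocyte markers, so the sum is not a measure of follicle cells alone. Sox9, a transcription factor of follicle stem and outer root sheath cells, was at 23.0 FPKM in KO and 27.97 FPKM in WT. Of 12 markers of the hair matrix, inner root sheath and shaft past 1 FPKM, 8 were lower and 4 (Msx2, Hoxc13, Foxn1 and Dlx3) higher, with a median of -0.36, and the 18 in the table summed to 67.6 FPKM in KO and 73.6 FPKM in WT. Of the 8 lower markers 3 (Krt28, Krt31 and Krt35) passed through the WT library alone and so had to be lower. The median was -0.23 with a filter on the mean of both libraries and 0.13 with a filter of 5 FPKM. The part of follicle content in the LGR values was not tested.

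Among the antagonists, 3 of 9 passed 1 FPKM and all 3 were lower in KO, where 55.6% of all genes were lower. Dkk3, a divergent Dickkopf protein made by basal keratinocytes (ENSMUSG00000030772, chr7:112116017-112159057, minus strand), was at 4.67 FPKM in KO and 5.83 FPKM in WT, and its difference of -0.27 was the lowest of the 32 on this scale. Wif1, which binds Wnt proteins directly, was at 1.04 FPKM in KO and 1.44 FPKM in WT, about 75 fragments in KO and 80 in WT, with a difference of -0.26. With a pseudocount of 0.1 FPKM the differences were -0.31 for Dkk3, -0.33 for Fzd2 and -0.43 for Wif1, and with no pseudocount -0.32, -0.34 and -0.47 in the same order, so the lowest gene then was Wif1. It was also the lowest after scaling on the upper quartile, at -0.242 beside -0.240 for Dkk3. Sfrp1, a secreted decoy with a Frizzled-like domain, was at 7.78 FPKM in KO and 8.10 FPKM in WT, with a difference of -0.051. The Dkk3 and Wif1 differences lay at percentiles 8.57 and 9.18 of all genes, inside the central 90%.

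The remaining antagonists were at or near the floor. Dkk1, Dkk2 and Dkk4, which block LRP5 and LRP6 or modulate them, were listed at 0 in both libraries. Sfrp2 had about 6 fragments in KO and 3 in WT. Sfrp4 and Sfrp5 were listed at 0 in KO and had about 1 and 2 fragments in WT. Nothing about a difference is read from so few fragments.

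Inside the cell, Ctnnb1 was the most abundant of all 56 genes. Ctnnb1 encodes beta-catenin, which also links cadherins to actin (ENSMUSG00000006932, chr9:120929216-120960507, plus strand), and was at 160.1 FPKM in KO and 166.9 FPKM in WT, a difference of -0.060. Among the 11886 genes past 1 FPKM in either library, Ctnnb1 lay by level at percentile 95.8 in KO and 95.9 in WT. Axin1, the constitutive scaffold of the destruction complex, was at 19.1 FPKM in KO and 20.8 FPKM in WT. Axin2, the inducible scaffold and a feedback target of beta-catenin, was at 8.96 FPKM in KO and 8.03 FPKM in WT, a difference of 0.14 at percentile 83.5. The Axin genes thus lay on opposite sides of 0, and neither was past 1.5-fold. As the feedback target of the pathway, Axin2 is shown with the 250 bases before its RefSeq start (GRCm38.p6, chr11:108920099-108920348, plus strand), its 24 CpG dinucleotides in capitals:
Axin2: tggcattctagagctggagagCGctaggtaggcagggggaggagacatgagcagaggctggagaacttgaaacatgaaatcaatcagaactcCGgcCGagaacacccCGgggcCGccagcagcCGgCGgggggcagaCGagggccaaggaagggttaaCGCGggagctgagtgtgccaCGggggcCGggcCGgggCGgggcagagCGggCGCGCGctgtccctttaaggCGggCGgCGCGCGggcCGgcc

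The TCF/LEF factors ran in the order Tcf7, Tcf7l2, Tcf7l1, Lef1 in both libraries. Tcf7, which encodes TCF1 and is used by T cells as well as epithelia, was at 6.94 FPKM in KO and 8.30 FPKM in WT, a difference of -0.23. Beside it, 9 T cell markers past 1 FPKM had a median difference of 0.0037, with 5 higher and 4 lower, and summed to 81.2 FPKM in KO and 79.6 FPKM in WT, with 0 listed at 0. Tcf7l2 was at 4.50 FPKM in KO and 4.86 FPKM in WT, and Tcf7l1, which encodes the repressor TCF3 of mouse follicle stem cells, at 1.13 FPKM in KO and 1.13 FPKM in WT. Lef1, a factor of the hair matrix, was at 0.200 FPKM in KO and 0.160 FPKM in WT, about 22 fragments in KO and 13 in WT. All 4 factors past 1 FPKM, Ctnnb1 included, were lower in KO, where 55.6% of all genes were. Of these Tcf7l1 stood above 0 after scaling on the upper quartile.

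RefSeq promoter windows of GRCm38.p6, which run 250 bases before to 50 after a gene's start, were matched to 37 of the 56 genes. CpG dinucleotides were dense in windows of Wnt genes whether or not the gene was expressed. The first window of 19 genes past 1 FPKM held a median of 31, that of 18 genes under 1 FPKM a median of 29. Over all genes the medians were 21 past 1 FPKM and 4 under it. The Wnt16 window held 10, the fewest among the 19 together with Rnf43.

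The core motif of TCF/LEF factors, CTTTGAT on either strand, was found in 2 of the 47 windows of Wnt genes (4.26%), against 3.73% of all 32851 windows. The 2 windows belong to Wnt5b and Wnt11, both under 1 FPKM, and 29 bases around each match are shown with the motif in capitals (GRCm38.p6; Wnt5b, chr6:119449440-119449468, minus strand; Wnt11, chr7:98835050-98835078, plus strand, where the motif reads as its reverse complement):
Wnt5b: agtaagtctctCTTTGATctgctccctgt
Wnt11: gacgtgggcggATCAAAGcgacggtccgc
The Wnt5b match lies in a window other than the first of that gene, and the first held none. A match describes letters in a window and is not a binding site. Only this exact motif was sought, on both strands, and the first Axin2 window held none.

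Other genes of the pathway, from lists chosen by function, also lay close to 0. Of 110 such genes, 79 passed 1 FPKM, 51 of them lower and 28 higher in KO, with a median log2 difference of -0.061. Over all genes 55.6% were lower, with a median of -0.023. None of the 79 was past 2-fold (0.757% of all genes were). Of 5 Wnt secretion and processing genes past 1 FPKM 4 were lower, led in level by Wls, the carrier that brings Wnt proteins to the surface, at 44.7 FPKM in KO and 48.1 FPKM in WT. Porcn, which attaches the lipid, was at 8.33 FPKM in KO and 7.98 FPKM in WT. Trabd2b, a protease that trims Wnt proteins and is listed under an older symbol, was at 1.88 FPKM in KO and 2.48 FPKM in WT.

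Other receptors and inhibitors were on both sides of 0. Of 5 other receptors 2 were higher, among them Ryk, a Wnt-binding tyrosine kinase-like receptor, at 46.7 FPKM in KO and 40.2 FPKM in WT. Of 6 other extracellular inhibitors 3 were higher and 3 lower, with a median of -0.0073. Sostdc1, an LRP-binding inhibitor of hair and tooth development, was at 43.1 FPKM in KO and 39.2 FPKM in WT. Kremen1, the Dickkopf co-receptor, was at 19.1 FPKM in KO and 22.8 FPKM in WT, and Shisa2 at 2.75 FPKM in KO and 3.60 FPKM in WT.

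Transducers and nuclear cofactors were mostly lower by small amounts. Of 20 cytoplasmic genes 14 were lower, with a median of -0.070, including the tankyrase Tnks, at 5.21 FPKM in KO and 6.28 FPKM in WT, and the Dishevelled gene Dvl1, at 25.5 FPKM in KO and 28.7 FPKM in WT. Of 19 nuclear cofactors 16 were lower, with a median of -0.087, against 55.6% of all genes. The co-repressor Ctbp2 was at 6.44 FPKM in KO and 8.31 FPKM in WT, Tle1, a Groucho co-repressor, at 8.83 FPKM in KO and 11.1 FPKM in WT, and Jup, which encodes plakoglobin, the desmosomal relative of beta-catenin, at 413 FPKM in KO and 499.6 FPKM in WT. Of 9 planar polarity genes 5 were higher and 4 lower, of which Vangl2, a core polarity protein, had the largest difference, -0.27. Celsr1, a core polarity cadherin, was at 8.33 FPKM in KO and 9.53 FPKM in WT.

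Known beta-catenin target genes were evenly divided, 8 higher and 8 lower of 16, with a median of -0.0044. Ascl2, a transcription factor of intestinal stem cells in mice, had the largest difference, 0.52, at 5.96 FPKM in KO and 3.84 FPKM in WT. Myc was at 122.8 FPKM in KO and 103.4 FPKM in WT, and Birc5, which encodes the mitotic protein survivin, at 43.97 FPKM in KO and 36.3 FPKM in WT. Cd44 was at 55.0 FPKM in KO and 62.4 FPKM in WT, and Sox4 at 3.52 FPKM in KO and 4.51 FPKM in WT. Ascl2 was the 1 gene of the 79 outside the central 90% of all genes.

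**Figure D4:**
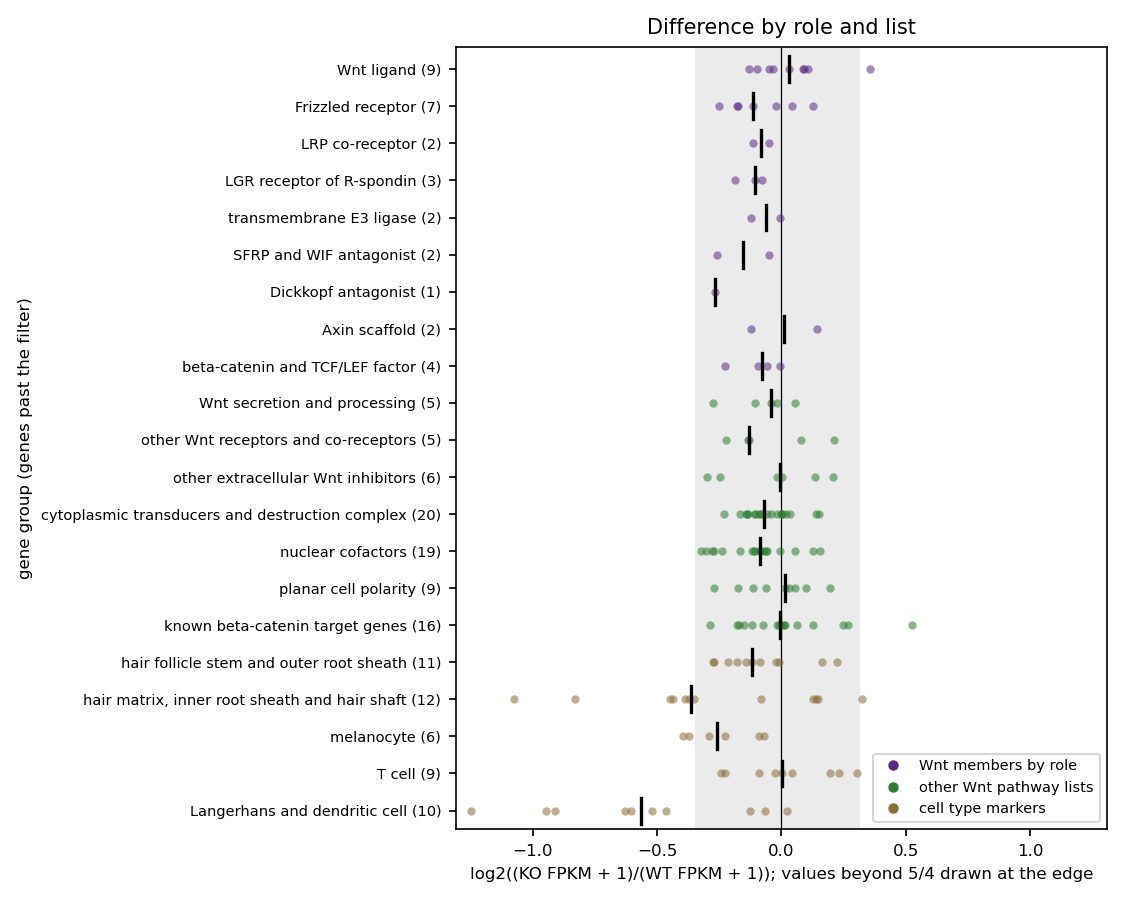
Each point is a gene past 1 FPKM, placed by log2((KO FPKM + 1)/(WT FPKM + 1)), with a black bar at the median of its role or list and the number of genes in brackets; the grey band holds the central 90% of all genes. Roles of Wnt genes and other Wnt pathway lists have medians between -0.27 and 0.030. Marker medians are -0.12 for follicle stem cells, -0.36 for hair matrix, -0.26 for melanocytes, 0.0037 for T cells and -0.56 for Langerhans cells. With a filter of 5 FPKM the hair matrix median was 0.13, over Krt71, Msx2, Foxn1 and Dlx3 alone.

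The test in the authors' deposited table sets 1 library against the other, without replicates, and called none of the Wnt genes. Of the 56, 36 had, in the authors' deposited table, a p under 1, the lowest being 0.265 for Wnt9a, 0.274 for Dkk3 and 0.295 for Wnt16, and 0 had a q under 0.05, where 20 loci of the whole table did.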

How the data were processed

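The table of 29246 loci, deposited by the authors, holds FPKM values for 1 KO and 1 WT library. The submitters' processing notes name TopHat2 2.0.13, Cufflinks 2.2.1 and mm10; the sources used here state no annotation release, strand use or scaling between libraries. Per locus, the deposited columns also hold the authors' log2 fold change, test score, p-value and q-value, which were copied. Columns were matched to groups by their names.

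Rows with a gene name and a RefSeq transcript (26264) were summed by name to 26242 genes, of which 11886 reached 1 FPKM in at least 1 library. Differences were taken as log2((KO FPKM + 1)/(WT FPKM + 1)), counted past 2-fold; with 1 library per group no test was made and no p computed. FPKM divides by length, and reads of similar genes can be divided between them. Depth was estimated from the lowest step of FPKM times length over 491 (KO) and 435 (WT) low values of single-transcript genes of 3 to 12 kb; fragment numbers are estimates, so no intervals are given, and were made for single-transcript genes. Motifs were counted on both strands. The 2-fold count was run on simulated data with planted differences past 2-fold, in genes of at least 5 FPKM. That simulation does not bear on the smaller differences of the Wnt genes.

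The members and lists were chosen with earlier results of these data known. All members are accounted for; of those past 1 FPKM, the 10 with the largest difference, the 5 most abundant and, among genes of at least 5 FPKM, the 4 closest to no difference are described in full. From each other list the text draws on its 3 largest differences and 3 most abundant genes. The markers Krt85 and Trdc were not analysed here. Alternatives were other pseudocounts, filters, scalings and thresholds. Python 3.11.15, numpy 2.4.6, pandas 2.3.3 and matplotlib 3.10.9 were used.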

Additional observations from a re-analysis of the deposited data

How the results depend on the processing

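None of the 32 Wnt genes was past 2-fold in either direction with a pseudocount of 0.1 or 5 FPKM, any filter, either scaling or plain ratios with no pseudocount, and none was past 1.5-fold or 4-fold; 1 (Wnt16) was past a limit of 0.32 on the log2 scale. The median was -0.070 for the 32, -0.089 for 20 genes with a filter of 5 FPKM and -0.028 for all 56 unfiltered. It was -0.039 for the 32 after upper quartile scaling, and it was below 0 in all alternatives run. The number higher in KO, 8, became 15 of 56 without a filter and 4 of 20 with a filter of 5 FPKM, and 20 were lower after upper quartile scaling and 22 after centring on the median gene. Wnt10a, Fzd5, Rnf43 and Tcf7l1 changed sign under a scaling, and the other 28 did not under any alternative run. The other receptors' median was -0.029 without a filter and -0.027 at 5 FPKM. The hair matrix median was -0.56 with a pseudocount of 0.1 FPKM, -0.12 with a pseudocount of 5 FPKM and -0.23 with a filter on the mean. With a filter of 5 FPKM it was 0.13, over Krt71, Msx2, Foxn1 and Dlx3 alone. The melanocyte median was -0.36 and -0.11 with pseudocounts of 0.1 and 5 FPKM, and the Langerhans median -0.41 with a pseudocount of 5 FPKM. A larger pseudocount shrinks low genes by its construction; the cause of the other shifts was not tested. Many values under 1 FPKM rest on few fragments. Fragment number also depends on length, and Fzd3, with a transcript of 12734 bases, had about 347 fragments in KO and 291 in WT. No paired analysis was possible because each group has 1 library, and for the same reason no library could be left out.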
